A study of Mus musculus with 12 samples.

Results

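The cortex of 12-week-old mice that model spinocerebellar ataxia type 1 (SCA1) was compared with the cortex of wild-type (WT) littermates, using the 6 cortical libraries of the 12 libraries in the series. SCA1 KI mice are heterozygous (Atxn1 154Q/2Q), with 154 CAG repeats on 1 chromosome and 2 on its partner, knocked into the mouse's own Atxn1 locus on a C57BL/6J background. The expanded protein is therefore made wherever the mouse Atxn1 promoter is active and not in a chosen cell type. Each group had 3 libraries, named by their column letters. The WT libraries were B, C and D and the SCA1 KI libraries A, E and F, and values are given in that order throughout. The labels list male mice and the study's methods list males and females. No treatment was given, and nothing in the labels says whether a library came from 1 mouse, so the p-values measure the spread between these libraries, which may be technical. The other 6 libraries, from the cerebellum of SCA1 KI and WT mice of the same age, entered the same fit and served for the comparison of regions.

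Ataxin-1 is a nuclear protein that binds RNA and transcription factors. Its best known partner is Capicua, a repressor that keeps genes of the RAS-MAPK pathway low, and the polyglutamine expansion changes how the pair acts on its target genes. SCA1 is known foremost as a disease of cerebellar Purkinje cells and the brainstem, but the protein is present in cortical neurons too, where the expanded form gathers in nuclear inclusions.

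Poly-adenylated RNA of whole macrodissected cortex was read to a depth of 34103546 to 36704807 reads on genes in the WT libraries and 36770183 to 39927889 in the SCA1 KI libraries. The unit here is the normalized count, the reads of a gene divided by 1 size factor per library, and a value given for a library without a unit is a normalized count. Genes that mark cortical tissue were present in all 6 libraries, with 5677 to 8222 normalized counts of Tbr1 against 23.2 to 46.3 in the cerebellar libraries. A few libraries also held RNA of neighbouring regions. WT library B had 1298 normalized counts of the choroid plexus gene Ttr against 32.4 to 72.9 in the other 5, and 378 of the striatal gene Drd2. In WT library D the cerebellar genes Gabra6 (42.1) and Pcp2 (28.5) were found, and SCA1 KI library F had 561 of the dopamine synthesis gene Th and 42.3 of the midbrain gene Pax7. Libraries A and F stood farthest from each other along the second principal component, which held 23.9% of the variance, while the first (45%) separated the genotypes.

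Of 15369 tested genes, 741 were upregulated DEGs and 1661 were downregulated DEGs in the SCA1 KI cortex, which is 4.82% and 10.8% of the tested genes. A DEG had an adjusted p under 0.05 from limma with Benjamini-Hochberg adjustment over all tested genes, and an absolute log2 fold change (LFC) over 0.25. The groups did not overlap in 30.9% of the tested genes, and in 2340 of the 2402 DEGs. The typical change was modest. The median LFC was 0.43 among the upregulated and −0.51 among the downregulated DEGs, and 90 and 233 of them had an absolute LFC over 1. With values corrected for transcript length and GC content within each library the counts were 1059 upregulated and 1377 downregulated, so that the downregulated share of the DEGs was 56.5% in place of 69.2%. The plot of LFC by expression level shows how the downregulated genes gather on the side of high expression.

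**Figure D1:**
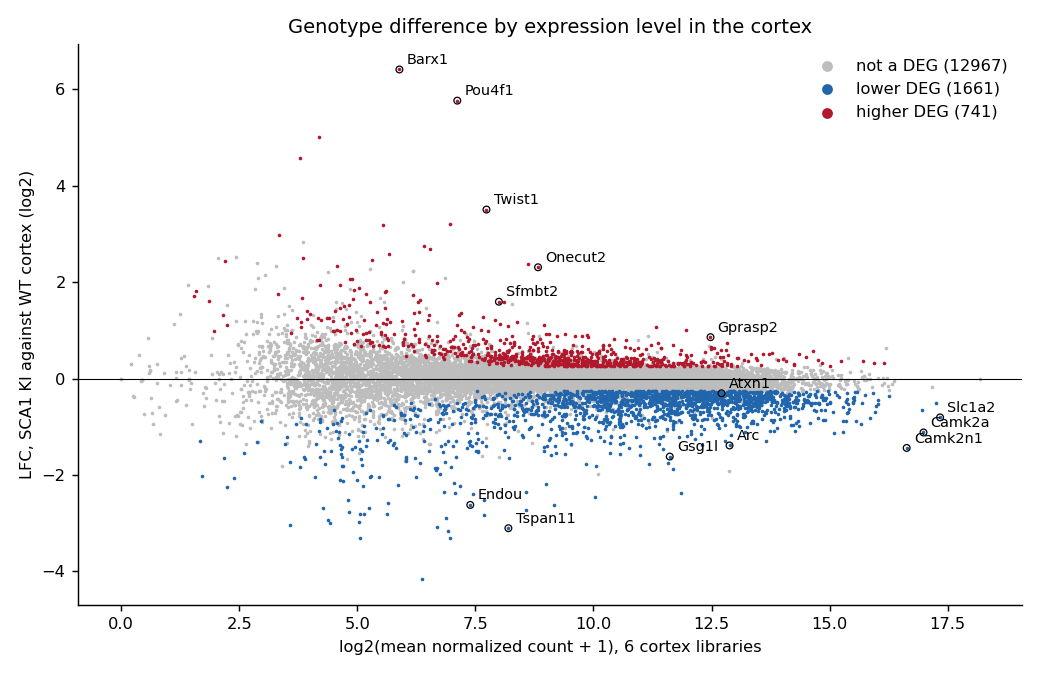
LFC of SCA1 KI against WT cortex (vertical axis, log2) against the mean level over the 6 cortex libraries (horizontal axis, log2 of the normalized count + 1) for the 15369 tested genes, with 741 higher DEGs in red, 1661 lower DEGs in blue and 14 genes ringed. Genes with low counts spread widely in both directions, while the most abundant DEGs, such as Slc1a2 (LFC −0.81) and Camk2n1 (LFC −1.44), lie below 0.

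The level of a gene in the cortex went along with its chance of being downregulated. In the fifth of tested genes with the highest mean level (over 3108 normalized counts), 753 genes were downregulated (24.5%) and 86 upregulated (2.80%). In the fifth with the lowest level, 154 were downregulated (5.01%) and 133 upregulated (4.33%). Gene length was examined in the same way. Of the genes spanning more than 78.6 kb in the genome, 19.4% were downregulated, against 7.01% of those spanning up to 8.19 kb. Within the fifth of highest level, 31.5% of the genes with a span over 38.8 kb and 17.3% of the shorter ones were downregulated.

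Among the 15 genes with the highest mean in the cortex, 6 were downregulated and none was upregulated. They included Slc1a2, the main glutamate transporter of astrocytes, the kinase gene Camk2a, its inhibitor Camk2n1, and the vesicle fusion genes Snap25 and Syt1. Without the ribosomal RNA transcript Rn45s, the other 14 genes of this group took 4.13% of all normalized counts in WT and 3.38% in SCA1 KI libraries. Slc1a2 had 214850.1, 213583 and 199946 normalized counts in the WT libraries and 89746, 147178 and 129954 in the SCA1 KI libraries (LFC −0.81, standard error 0.15, adjusted p = 0.00236 from limma), with the lowest value in library A. Meg3, an imprinted long non-coding RNA, had 80867, 59653 and 39567 in WT and 72915, 100386 and 95935 in SCA1 KI, so that the groups overlapped, and an LFC of 0.63 that missed the threshold (adjusted p = 0.0631) but passed it without library A or B.

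Atxn1 itself had 8147, 7443 and 6521 normalized counts in the WT libraries and 4604, 7249 and 6267 in the SCA1 KI libraries and did not pass (LFC −0.31, standard error 0.13, adjusted p = 0.132). The groups overlapped, and the gene shares exon positions with Gmpr. These counts cover both alleles and do not tell the expanded one from the other. Sqstm1, which encodes the autophagy receptor p62, had 16223, 16004 and 16329.7 in WT and 19723, 17432 and 16362 in SCA1 KI (LFC 0.14, adjusted p = 0.217). The microglial gene Aif1 (LFC 0.10, adjusted p = 0.786) and the astrocytic gene Gfap (LFC −0.37, adjusted p = 0.222) did not pass either. Rbfox3, which encodes the neuronal nuclear antigen NeuN, fell. It had 16556, 15239.5 and 16136 in WT and 9825, 10097 and 9271 in SCA1 KI (LFC −0.72, standard error 0.10, adjusted p = 0.000431), with no overlap.

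The 10 downregulated genes with the smallest p, among those whose libraries did not overlap and whose mean was at least 50 normalized counts, were Gsg1l, Camk2n1, Gpd1, Hapln4, Endou, Lynx1, Tspan11, Sema7a, Mapk4 and Efhd2. Several act at the neuronal surface or synapse. Gsg1l is an auxiliary subunit of AMPA receptors, and Lynx1 is a membrane-anchored protein that damps nicotinic acetylcholine receptors. Hapln4 links the proteoglycans of perineuronal nets, and Sema7a is a membrane-bound semaphorin that guides axons.

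Tspan11 (chromosome 6, 127887589 to 127953977, GRCm38, plus strand), a member of the tetraspanin family of membrane proteins, had 482, 505 and 582 normalized counts in the WT libraries and 39.4, 77.9 and 69.4 in the SCA1 KI libraries. The SCA1 KI libraries held a small remainder of the WT level, 8.4 times less on the group means (LFC −3.10, standard error 0.20, adjusted p = 2.46e-06). Endou (chromosome 15, 97711015 to 97731339, minus strand), an RNA endonuclease, had 299, 224 and 342 in WT and 44.3, 47.6 and 44.1 in SCA1 KI (LFC −2.62, standard error 0.16, adjusted p = 2.29e-06), with SCA1 KI libraries close to each other. Lynx1 (chromosome 15, 74747852 to 74753046, minus strand) had 18199, 19843 and 17811 in WT and 10557, 9848 and 10127 in SCA1 KI (LFC −0.87, standard error 0.054, adjusted p = 2.41e-06). Its decrease was smaller than that of Tspan11 but came with a narrow spread in both groups.

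Sema7a (chromosome 9, 57940112 to 57962865, plus strand) had 10707, 11115 and 9964 in WT and 5006, 4964 and 4181 in SCA1 KI (LFC −1.17, standard error 0.075, adjusted p = 2.46e-06). Efhd2 (chromosome 4, 141858142 to 141874920, minus strand), a calcium-binding protein abundant in cortical neurons, had 11031, 12705 and 11514 in WT and 5875, 5947 and 5773 in SCA1 KI (2.0-fold less on the group means, adjusted p = 3.66e-06). The rule for these genes required groups without overlap, and in both genes every SCA1 KI library lay far below the lowest WT library. The remaining genes of this group had LFC from −1.62 for Gsg1l to −0.94 for Mapk4, an atypical MAP kinase whose gene overlaps Gm9925.

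**Figure D2:**
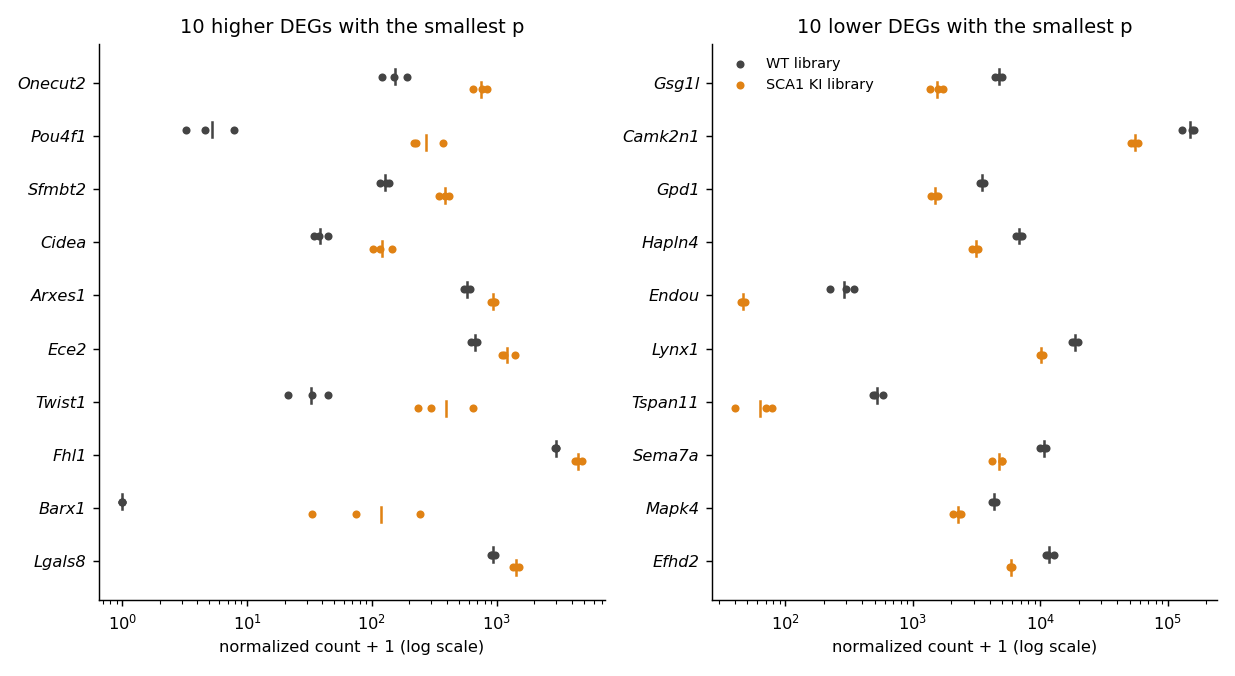
Normalized count + 1 (horizontal axis, log scale) of the 10 higher and the 10 lower DEGs with the smallest p in each WT (dark) and SCA1 KI (orange) cortex library, with a vertical bar at the group mean. WT and SCA1 KI libraries do not overlap in any of the 20 genes. Of the higher genes, Pou4f1, Twist1 and Barx1 have the genotypes farthest apart, and Barx1 sits at 0 counts in all WT libraries and is spread widely over the SCA1 KI libraries.

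The 10 upregulated genes with the smallest p under the same rule were Onecut2, Pou4f1, Sfmbt2, Cidea, Arxes1, Ece2, Twist1, Fhl1, Barx1 and Lgals8. The group holds 4 transcription factors of embryonic development (Onecut2, Pou4f1, Twist1 and Barx1) and Sfmbt2, a Polycomb protein. Pou4f1 is known from sensory neurons, the habenula and the inferior olive, Twist1 from mesoderm and neural crest, and Barx1 from the stomach and jaw. In the adult cortex such genes are usually silent.

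Promoters of 3 of these factors and that of Tspan11 are printed to show the sequence around the start of genes at both ends of the list, 250 bases before and 50 after the RefSeq start (GRCm38.p6, gene strand, 5′ to 3′), with CpG dinucleotides in capitals:
Barx1, chr13:48662786-48663085, plus strand: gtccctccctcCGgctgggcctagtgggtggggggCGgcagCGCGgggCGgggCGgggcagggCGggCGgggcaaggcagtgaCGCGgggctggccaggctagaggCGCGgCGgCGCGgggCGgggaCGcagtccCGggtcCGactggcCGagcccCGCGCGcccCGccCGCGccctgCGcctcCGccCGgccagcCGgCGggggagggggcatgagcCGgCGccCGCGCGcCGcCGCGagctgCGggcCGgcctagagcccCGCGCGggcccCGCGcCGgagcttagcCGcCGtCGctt
Pou4f1, chr14:104467950-104468249, minus strand: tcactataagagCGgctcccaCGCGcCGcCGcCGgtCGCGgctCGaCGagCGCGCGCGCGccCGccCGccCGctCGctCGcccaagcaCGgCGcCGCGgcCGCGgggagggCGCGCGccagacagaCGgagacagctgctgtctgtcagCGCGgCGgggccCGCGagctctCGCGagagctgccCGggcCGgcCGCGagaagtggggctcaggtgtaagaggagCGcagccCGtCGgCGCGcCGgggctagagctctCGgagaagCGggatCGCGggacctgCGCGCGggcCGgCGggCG
Twist1, chr12:33957421-33957720, plus strand: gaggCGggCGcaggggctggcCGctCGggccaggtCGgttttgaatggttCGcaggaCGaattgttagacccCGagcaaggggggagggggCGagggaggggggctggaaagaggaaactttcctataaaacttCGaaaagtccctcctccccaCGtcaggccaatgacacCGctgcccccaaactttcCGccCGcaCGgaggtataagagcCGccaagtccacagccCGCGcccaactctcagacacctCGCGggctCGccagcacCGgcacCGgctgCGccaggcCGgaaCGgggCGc
Tspan11, chr6:127887372-127887671, plus strand: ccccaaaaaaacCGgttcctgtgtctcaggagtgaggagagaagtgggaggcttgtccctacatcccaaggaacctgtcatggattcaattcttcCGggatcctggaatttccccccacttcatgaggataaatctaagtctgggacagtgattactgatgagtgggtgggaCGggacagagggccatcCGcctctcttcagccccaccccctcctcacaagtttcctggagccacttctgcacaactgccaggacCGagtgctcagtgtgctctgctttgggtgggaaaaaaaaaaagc

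The Barx1 promoter held 50 CpG and that of Pou4f1 57, which only 1.58% and 0.306% of the 9136 promoters of tested genes with a single RefSeq entry reached or passed. The Twist1 promoter held 27 CpG (30.0% of promoters had as many or more) and the letters TATAAA from base 125, which 7.27% of all these promoters held on either strand. In the Tspan11 promoter there were 5 CpG, and 91.7% of promoters had as many or more. The 4 promoters do not stand for their groups. Over all upregulated genes with a single promoter (449) the median was 18 CpG, over the downregulated (886) 23, and over all 9136 it was 20. TGAATGAA, the octamer that Capicua binds, was searched on both strands. It was found in 0.445% of the promoters of upregulated genes, 1.24% of those of downregulated genes and 0.821% of all. The near form TGAATGGA was found in 0.445%, 0.451% and 0.733%, in the same order. These are 2 and 11 promoters for the first form and 2 and 4 for the other, out of 75 and 67 in all, and a match is a description of letters, not of binding.

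Barx1 (chromosome 13, 48662998 to 48666507, GRCm38, plus strand) had no read in any WT library and 243, 73.9 and 32.4 normalized counts in the SCA1 KI libraries, at least 33.9-fold higher against a floor of 3 reads per library (adjusted p = 4.26e-05). Its highest value was in library A and its lowest in library F. Pou4f1 (chromosome 14, 104461676 to 104467999, minus strand) had 3.56, 2.21 and 6.83 in WT and 372, 225 and 217 in SCA1 KI (LFC 5.76, standard error 0.49, adjusted p = 1.43e-05). Twist1 (chromosome 12, 33957671 to 33959829, plus strand) had 20.2, 32.1 and 43.3 in WT and 644, 298 and 234 in SCA1 KI (LFC 3.50, standard error 0.35, adjusted p = 3.31e-05). The rule required every SCA1 KI library of these 3 genes to lie above every WT one, and the value was highest in library A.

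The other upregulated genes changed by less and more evenly. Sfmbt2 (chromosome 2, 10370510 to 10595253, plus strand) had 128, 135 and 115 in WT and 347, 385 and 416 in SCA1 KI (LFC 1.59, standard error 0.14, adjusted p = 1.43e-05). Ece2, an endothelin-converting enzyme of neuroendocrine cells whose gene overlaps Gm49333, had 671, 628 and 700.2 in WT and 1097, 1144 and 1393 in SCA1 KI (LFC 0.85, standard error 0.084, adjusted p = 3.26e-05). The galectin gene Lgals8, which overlaps Heatr1 and whose protein marks damaged vesicles for autophagy, had 910.3, 897 and 975 in WT and 1501, 1348 and 1434 in SCA1 KI (LFC 0.62, standard error 0.064, adjusted p = 4.68e-05). For Fhl1, an X-linked LIM-domain gene, the values were 2997, 2984 and 2931 in WT and 4212, 4371 and 4791 in SCA1 KI (LFC 0.58, standard error 0.06, adjusted p = 4.26e-05). Onecut2 and Cidea, a lipid droplet gene, had LFC of 2.31 and 1.64.

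Beyond these genes, 37 lists of genes with a shared function were read out, of which 22 had a share of downregulated genes above the 10.8% of all tested genes and 10 a share of upregulated genes above 4.82%. Lists overlap, and their members share libraries, so the shares are descriptions. The plot of DEG shares shows 36 of the lists, ordered by their median LFC.

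**Figure D3:**
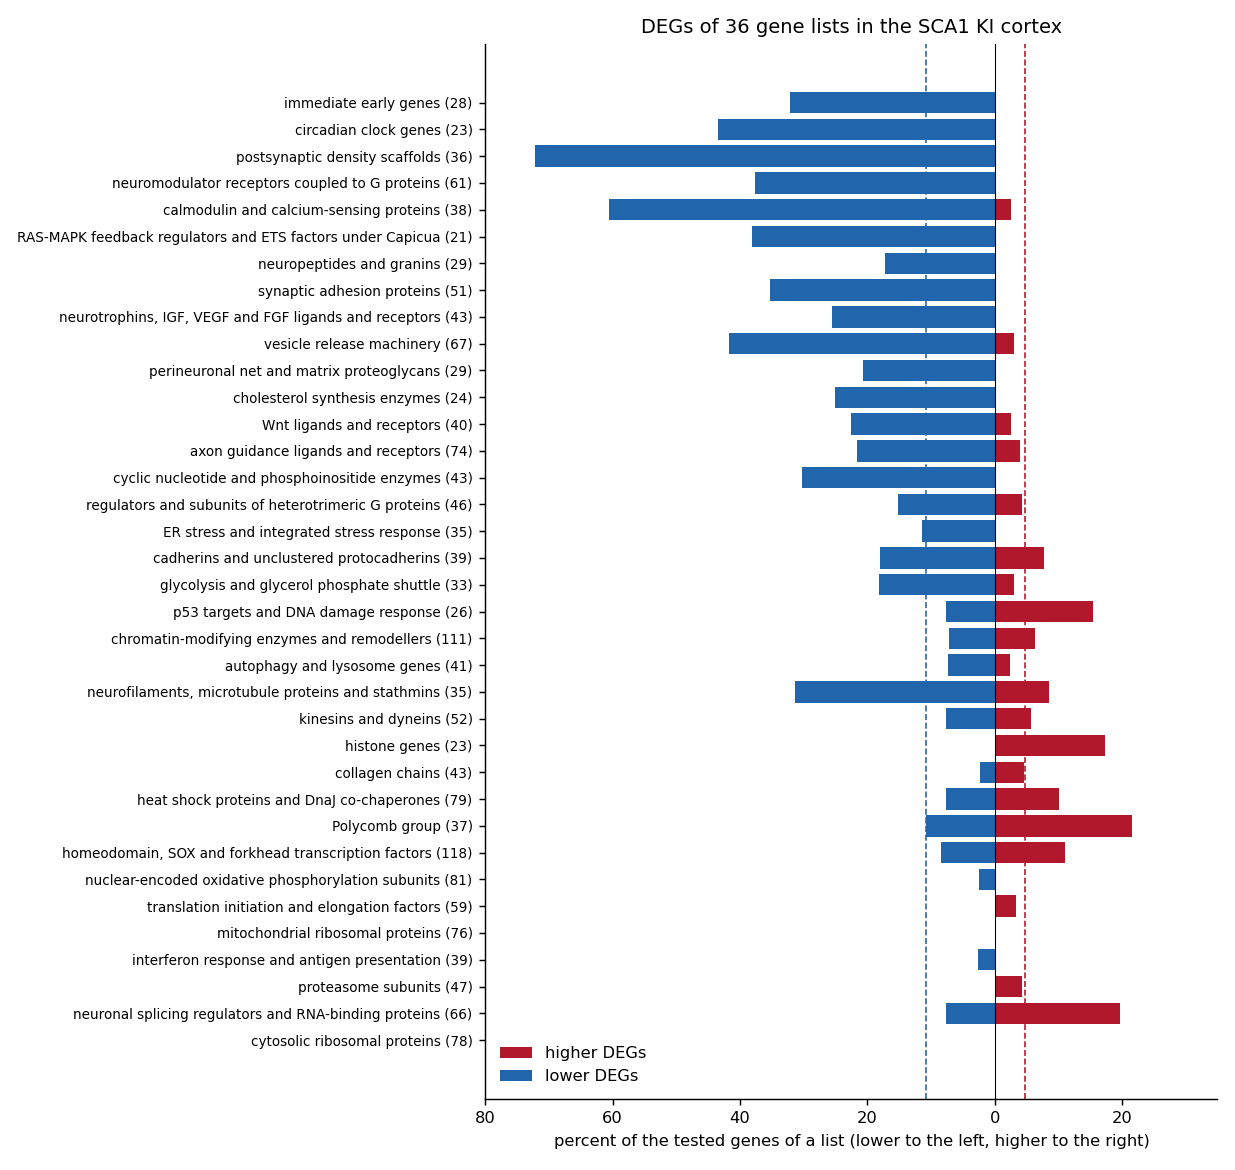
Percent of the tested genes of each of 36 lists (number tested in brackets) that were lower (blue, to the left) or higher (red, to the right) DEGs in the SCA1 KI cortex, ordered by median LFC, with dashed lines at the shares over all tested genes (10.8% and 4.82%). Synaptic, calcium-sensing, clock and early response lists reach far to the left, and the RNA-binding and Polycomb lists reach farthest to the right.

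At the synapse, the decrease was broadest on the postsynaptic side. Of 36 postsynaptic density scaffolds, 26 were downregulated (72.2%) and 0 upregulated (median LFC −0.52). Dlg4, the core scaffold PSD-95, had 38101, 35743 and 37648 in WT and 24349.8, 28127 and 25414 in SCA1 KI (LFC −0.52, standard error 0.061, adjusted p = 0.000123). Kalrn, an activator of Rac in dendritic spines, had 33217, 31585 and 31746 in WT and 16871, 18613 and 15356 in SCA1 KI (LFC −0.93, standard error 0.07, adjusted p = 6.96e-06), and Sipa1l1, a spine-associated regulator of Rap, 27952, 27301 and 25309 in WT and 12699, 15603 and 15461 in SCA1 KI (LFC −0.89, adjusted p = 1.43e-05). In these 3 genes the highest SCA1 KI library was below the lowest WT library.

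On the presynaptic side a smaller part of the genes was downregulated. Of 67 genes of the vesicle release machinery, 28 were downregulated (41.8%) and 2 upregulated (median LFC −0.24). Rph3a, which encodes the vesicle protein rabphilin, had 24824, 25097 and 24057 in WT and 11084, 13693 and 13251 in SCA1 KI (LFC −0.97, standard error 0.074, adjusted p = 7.67e-06), and the active zone scaffold Bsn, which was chosen after its values were seen, 30268, 26215 and 27247 in WT and 11773, 17029.6 and 13649.5 in SCA1 KI (LFC −0.99, adjusted p = 0.000179). Snap25, a SNARE protein of every synapse, had 146505, 162700.1 and 156022 in WT and 102725, 102077 and 93030.1 in SCA1 KI (LFC −0.64, standard error 0.07, adjusted p = 7.02e-05). Among 51 synaptic adhesion proteins 18 were downregulated and none upregulated (median LFC −0.26), with Adam23, a neuronal receptor of secreted LGI proteins, at 10449, 10362 and 10357 in WT and 5937, 7418 and 6892 in SCA1 KI (LFC −0.63, adjusted p = 8.05e-05). The count of 2 upregulated release genes was 5 without library A and 1 without C, D or F, and that of 18 adhesion genes was 11 with the level of thalamus and habenula markers as a covariate. Corrected for length and GC content, 24 release genes, 14 adhesion genes and 22 scaffolds were downregulated, and 2, 1 and 0 upregulated. Of all genes in the fifth of highest level, 31.5% of those spanning over 38.8 kb and 17.3% of the shorter ones were downregulated.

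Calcium sensing was the list with the next largest share of decreases. Of 38 calmodulin and calcium-sensing genes, 23 were downregulated (60.5%) and 1 was upregulated (median LFC −0.44). Cabp1, a calmodulin-like regulator of calcium channels, had 5612, 5834 and 6127 in WT and 3469, 2948 and 2765 in SCA1 KI (LFC −0.94, standard error 0.076, adjusted p = 1.13e-05). The upregulated member was Gap43, a calmodulin-binding protein of growing axons, with 8386, 7953 and 9364 in WT and 12697, 12413 and 11545 in SCA1 KI (LFC 0.51, adjusted p = 0.000254), which was chosen after its values were seen.

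Many neuromodulator receptors fell. Of 61 neuromodulator receptors coupled to G proteins, 23 were downregulated and none upregulated (median LFC −0.45), and with the thalamus and habenula covariate 14 were downregulated. Adra1d, an adrenergic receptor, had 1759, 2367 and 1675 in WT and 668, 643 and 664 in SCA1 KI (LFC −1.54, standard error 0.11, adjusted p = 6.51e-06). Hrh3, the presynaptic histamine receptor, had 3116, 3141 and 4439 in WT and 1159.9, 1028 and 897 in SCA1 KI (LFC −1.78, standard error 0.14, adjusted p = 7.67e-06), and the metabotropic glutamate receptor gene Grm3 4164, 4387 and 4192 in WT and 2203, 2569.6 and 2205 in SCA1 KI (LFC −0.87, adjusted p = 1.43e-05). The adjusted p of the muscarinic receptor gene Chrm1 (LFC −0.62, adjusted p = 0.0499) was at the threshold, and the call was lost with any 1 of the 6 libraries left out.

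Second messenger enzymes and regulators of the G proteins themselves were read out as well. Of 43 cyclic nucleotide and phosphoinositide enzymes, 13 were downregulated (30.2%, median LFC −0.16), among them Adcy9 (LFC −0.81, adjusted p = 1.14e-05) and Plcb1 (LFC −0.70, adjusted p = 1.43e-05), while Plcd4 did not pass (LFC −0.16). Of 46 G-protein regulators and subunits 7 were downregulated (15.2%) and 2 upregulated (4.35%), with a median LFC of −0.08. These shares were near the 10.8% and 4.82% of all tested genes. Rgs20, which speeds GTP hydrolysis by Gi-type proteins, had 1971, 1863 and 1884 in WT and 981, 1178 and 1123 in SCA1 KI (LFC −0.80, standard error 0.074, adjusted p = 2.1e-05). The upregulated members were Rgs13, with 13.1, 26.6 and 26.2 in WT and 141, 143 and 157 in SCA1 KI (LFC 2.75), and Gng4, with 2425, 3142 and 2313 in WT and 4124, 4799 and 7165 in SCA1 KI (2.04-fold on the group means), both chosen after their values were seen. Gng4 was not called without library B, D or F.

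Genes often placed under Capicua were among the downregulated ones. Of 21 feedback regulators of RAS-MAPK signalling and ETS factors, 8 were downregulated and none was upregulated (median LFC −0.39). Etv5, an ETS factor, had 5113, 6067 and 3963 in WT and 3373, 4132 and 3375 in SCA1 KI and did not pass (LFC −0.46, adjusted p = 0.131). Dusp7 and Dusp6, phosphatases of ERK, had LFC of −0.87 (adjusted p = 6.41e-05) and −0.74 (adjusted p = 0.0164). Dusp6 had 3052, 4761 and 3060.3 in WT and 1882, 2517 and 2011 in SCA1 KI, so that the groups did not overlap although WT library C stood high, and the call was lost without library A or C. The count of 8 was 2 without SCA1 KI library A, 3 without WT library C and 5 without SCA1 KI library F.

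Of the 37 lists of shared function, early response genes had the lowest median LFC, −0.60 over 28 genes, of which 9 were downregulated and none upregulated. Arc, which encodes a capsid-like protein of active dendrites, had 9641, 14995 and 8367 normalized counts in the WT libraries and 4176, 4421 and 3654 in the SCA1 KI libraries (LFC −1.39, standard error 0.18, adjusted p = 0.000197). Homer1 had 10950.4, 15739 and 8152 in WT and 5189.7, 6501 and 5355 in SCA1 KI (LFC −0.99, standard error 0.19, adjusted p = 0.00295). In both, WT library C was the highest of the 6, and this held for Fos as well (1180, 2289.7 and 1543 in WT and 1728, 1352 and 1115 in SCA1 KI), which did not pass. Without WT library C the count was 5, and without SCA1 KI library F it was 5 too.

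Clock genes followed. Of 23 circadian clock genes, 10 were downregulated (43.5%) and none upregulated (median LFC −0.53). The D-box factors Hlf and Tef had 12898, 14170 and 14467 in WT and 9075, 7295 and 6377 in SCA1 KI (LFC −0.88, standard error 0.10, adjusted p = 9.66e-05) and 14293, 13852 and 16879.6 in WT and 10502, 8883 and 8901 in SCA1 KI (LFC −0.67, standard error 0.087, adjusted p = 0.000238). Per3, a period gene of the negative limb, had 1619.7, 1359 and 1659 in WT and 988, 710.5 and 759.6 in SCA1 KI (LFC −0.92, standard error 0.12, adjusted p = 0.000197). Arntl, which encodes BMAL1 of the positive limb, had 2015, 2025 and 1226 in WT and 1359, 1879 and 1690.3 in SCA1 KI, with overlapping groups, and did not pass.

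In the nucleus the lists moved in both directions. Of 118 homeodomain, SOX and forkhead transcription factors, 13 were upregulated and 10 downregulated (8.47%), around a median LFC of 0.05 (0.04 with the 15 genes at the floor of 3 reads in one genotype set to their bound, and below 0 without library F). The upregulated members were genes of low abundance, with Onecut2 (190.1, 148 and 121 normalized counts) the highest of them in WT. The downregulated ones were all more abundant in WT, from Pou2f2 (396, 292 and 269.8) to Pou6f1 (6775, 7021 and 6572), and include Cux1 and Cux2 of the upper layers. After correction for length and GC content 22 were upregulated and 6 downregulated, and DESeq2 called 24 upregulated. Cux1 had 6464, 5847 and 5852 in WT and 3572, 3945 and 3759.9 in SCA1 KI (LFC −0.69, standard error 0.063, adjusted p = 2.16e-05) and Cux2 5599, 5183 and 5615 in WT and 3536, 3843 and 3168 in SCA1 KI (LFC −0.64, standard error 0.075, adjusted p = 0.000123). En2 and Pax2, chosen after their values were seen, are examples of the upregulated ones. En2, of the midbrain and cerebellum, had 29.7, 14.4 and 27.3 in WT and 239, 108 and 136 in SCA1 KI (LFC 2.69, adjusted p = 6.19e-05), and Pax2, of the same territory, 11.9, 19.9 and 39.8 in WT and 346, 186 and 132 in SCA1 KI (LFC 3.21, adjusted p = 0.000102).

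Some genes stayed at or under a floor of 3 reads in every library of one genotype. There were 71 genes at or under 3 reads in every WT library that passed it in an SCA1 KI library, and 22 genes the other way round, with 86 at or under it in both. By mean level the first 5 were Barx1, Shox2, Rln3, Irx2 and Hoxc4. Shox2, a homeodomain factor, had no read in WT and 35.5, 16.2 and 51.4 normalized counts in SCA1 KI (adjusted p = 0.000347), and Hoxc4, a factor of the spinal cord, no read in WT and 43.4, 20.2 and 13.5 in SCA1 KI, at least 7.49-fold higher (adjusted p = 0.0138), a call that was lost without library A and by edgeR. Rln3 and Irx2 were different. The peptide gene Rln3 had no read in WT and 0, 0 and 82.0 normalized counts in SCA1 KI, so all its reads came from library F, and Irx2, a homeodomain factor, had 3.94, 1.01 and 74.8. In 13 of the 71 genes all 3 SCA1 KI libraries passed the floor, and in 6 of the 22 all 3 WT libraries did. The floor is in reads, and every SCA1 KI cortex library was deeper than every WT one. Depth and genotype can therefore not be told apart in these counts.

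In the other direction, Slc28a1, a nucleoside transporter, had 19.0, 25.5 and 17.1 in WT and 0.986, 2.02 and 2.7 in SCA1 KI, Trim54, a muscle ubiquitin ligase, 17.8, 8.86 and 33.0 in WT and 0.986, 3.04 and 1.8 in SCA1 KI, and the muscle factor Myod1 11.9, 13.3 and 29.6 in WT and 0, 1.01 and 1.8 in SCA1 KI. In these 3 the groups did not overlap, at low counts. Gabra6 and Pcp2, markers of cerebellar granule and Purkinje cells, were above the floor in no cortex library but WT library D.

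Polycomb genes, which keep developmental genes silent, had 8 upregulated members of 37 (21.6%) and 4 downregulated ones (median LFC 0.04). Apart from Sfmbt2 they included Cbx8, Rnf2, Phf1, Ring1, Pcgf2 and Asxl3, with LFC from 0.26 for Ring1 to 0.55 for Cbx8. Ring1 was not called without library B, D, E or F. Cbx8, which encodes a reader of histone methylation and was chosen after its values were seen, had 290, 273 and 304 in WT and 436, 421 and 416 in SCA1 KI (LFC 0.55, standard error 0.12, adjusted p = 0.00543). Ezh2, the catalytic subunit, had 140.2, 143 and 104 in WT and 87.7, 122 and 159 in SCA1 KI and did not pass. Bap1, which removes the ubiquitin that Polycomb places on histone H2A, fell with 6115, 6546 and 6625 in WT and 4821, 4970.1 and 4942 in SCA1 KI (LFC −0.39, adjusted p = 0.00019). Leaving out library D or library E gave 5 in place of 8 upregulated genes, and without library C 2 were downregulated. Of 111 other chromatin enzymes 7 were upregulated (6.31%) and 8 downregulated (7.21%), against 4.82% and 10.8% of all tested genes. Their median LFC of −0.02 turned to 0.09 once length and GC content were corrected for. The 8 decreases were 4 without library A or B, 2 without C, 13 without E and 5 without F, and the median LFC was above 0 without A or B.

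Splicing regulators were the list with the second largest share of upregulated genes, after Polycomb. Of 66 such regulators and RNA-binding proteins, 13 were upregulated (19.7%) and 5 downregulated (median LFC 0.10). The upregulated members were mostly SR and hnRNP proteins and included Ewsr1 and Taf15, and the downregulated ones were Rbfox1, Rbfox3, Nova1, Mbnl1 and Qk, which set splicing patterns of mature neurons or glia. Srsf5, an SR protein, had 5739.6, 5959 and 5756 in WT and 8429, 7199.7 and 8076 in SCA1 KI (LFC 0.44, standard error 0.071, adjusted p = 0.00107), and Rbfox1 21622, 21320.3 and 20011 in WT and 14738, 15321 and 14078 in SCA1 KI (LFC −0.51, standard error 0.065, adjusted p = 0.000208). The increases were small, and their count of 13 was 6 without WT library D and 7 with the level of thalamus and habenula markers as a covariate. The 5 decreases were 3 without library A or B and 2 without C.

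Chaperone genes held DEGs in both directions. Of 79 heat shock proteins and DnaJ co-chaperones, 8 were upregulated (10.1%) and 6 downregulated (7.6%), around a median LFC of 0.01. Over all tested genes the shares were 4.82% and 10.8%. Of the cytosolic chaperones, Hsp90aa1, which encodes an HSP90 protein, rose with 31311, 36507 and 33473 in WT and 44998, 44674 and 41118 in SCA1 KI (LFC 0.37, adjusted p = 0.00171) and the constitutive Hspa8 with 47639, 51692 and 40809 in WT and 61531, 60232 and 57083 in SCA1 KI (LFC 0.36, adjusted p = 0.0107). The stress-inducible Hspa1b fell, with 255, 265 and 194 in WT and 81.8, 102 and 105 in SCA1 KI (LFC −1.29, adjusted p = 0.00111), and Dnajc21, a co-chaperone of ribosome assembly, had 1399.8, 2066 and 1268 in WT and 766, 644 and 596 in SCA1 KI (LFC −1.21, standard error 0.15, adjusted p = 0.00019). Hsp90aa1 and Hspa8 were chosen after their values were seen. The count of 8 upregulated genes was 5 without library A, D or E and 3 with the cortex fitted on its own, and the median LFC was below 0 without A or B.

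Autophagy showed few DEGs. The stress response of the endoplasmic reticulum had a downregulated share of 11.4%, near the 10.8% of all tested genes. Of 41 autophagy and lysosome genes 1 was upregulated and 3 downregulated, and the latter count was 1 without library A or C. The upregulated gene was Optn, an autophagy receptor related in role to p62, with 625, 659.9 and 671 in WT and 986, 952 and 954 in SCA1 KI (LFC 0.56, standard error 0.066, adjusted p = 0.000115). Of 35 genes of the endoplasmic reticulum and integrated stress response 4 were downregulated and none upregulated, with the sensor Atf6 at 5179, 5422 and 4693 in WT and 2991, 3259.8 and 3218 in SCA1 KI (LFC −0.69, standard error 0.067, adjusted p = 3.05e-05), and without library C 2 were downregulated. Of 47 proteasome genes, Psme1 (992, 922 and 1046 in WT and 1845, 1476 and 1483 in SCA1 KI, LFC 0.69, adjusted p = 0.000708) and Psme2 (608, 601 and 672 in WT and 946, 733 and 790.2 in SCA1 KI, LFC 0.39, adjusted p = 0.0127), the subunits of the 11S activator, were upregulated and none was downregulated, and Psme2 was not called without library C.

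Ribosomal and mitochondrial genes held few DEGs. None of 78 cytosolic and none of 76 mitochondrial ribosomal proteins was a DEG by limma, edgeR or DESeq2, with median LFC of 0.14 and 0.07, while 7 and 4 had an unadjusted p under 0.05 in limma. Of the cytosolic ones 73 had a positive LFC. Without WT library D, 11 cytosolic ribosomal proteins were upregulated in limma, around a median LFC of 0.27, and without SCA1 KI library A none was, around a median of 0.02. The mitochondrial median was −0.03 without library A. Of 81 nuclear-encoded subunits of oxidative phosphorylation 2 were downregulated (median LFC 0.05, but −0.05 without library A and −0.03 without B), both isoforms best known from muscle, Cox6a2 (249.5, 237 and 305 in WT and 136, 108 and 88.3 in SCA1 KI, LFC −1.26, adjusted p = 0.000416) and Cox8b (5.94, 8.86 and 9.11 in WT and 1.97, 1.01 and 3.6 in SCA1 KI). Of 59 translation factors 2 were upregulated, Eef1a1 (LFC 0.32) and the Y-linked Eif2s3y (LFC 0.60).

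Sugar and sterol metabolism fell at a few points. Of 33 genes of glycolysis and the glycerol phosphate shuttle 6 were downregulated and 1 was upregulated, a call lost without library A. Gpd1, the cytosolic enzyme of the shuttle, fell by 1.23 on the log2 scale, and Pdp1, a phosphatase that activates pyruvate dehydrogenase, had 8838, 13134 and 8377 in WT and 3579, 4582 and 4019 in SCA1 KI (LFC −1.29, standard error 0.14, adjusted p = 5.41e-05). Of 24 enzymes of cholesterol synthesis 6 were downregulated, among them Hmgcs1 (13217, 16328 and 15451 in WT and 11654, 11406 and 11930.4 in SCA1 KI, LFC −0.36, adjusted p = 0.00902). The count of 6 sterol genes was 2 without WT library C.

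Secreted signals and guidance genes gave more decreases than increases. Of 40 Wnt ligands, receptors and modulators 9 were downregulated and 1 upregulated (median LFC −0.17), with Wnt4 at 938, 1109 and 1225 in WT and 540.1, 525 and 446 in SCA1 KI (LFC −1.11, standard error 0.12, adjusted p = 6.53e-05) and Wnt9a at 1129, 1098 and 1354 in WT and 615, 561 and 483 in SCA1 KI (LFC −1.11, adjusted p = 0.000142). Of 43 growth factors and their receptors 11 were downregulated, Fgf9 (LFC −0.81, adjusted p = 9.41e-05) and Igfbp4 (LFC −1.03, adjusted p = 0.000246) among them. Bdnf, a neurotrophin released with activity, had 1474, 2158 and 1337 in WT and 801, 1276 and 1118 in SCA1 KI, with no overlap of the groups, but did not pass (LFC −0.63, adjusted p = 0.0906). Of 74 axon guidance genes 16 were downregulated and 3 upregulated, with the semaphorin receptor gene Plxnd1 at 7912, 6500.4 and 6525 in WT and 2855, 4157 and 3151 in SCA1 KI (LFC −1.05, standard error 0.13, adjusted p = 0.000144). The 1 Wnt increase was not called without library B, C or F. None of the 3 increases of guidance genes was called without library C or D, and 1 without F.

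The neuropeptide Npy had 2655, 2514 and 3008 in WT and 1737, 1502 and 1424 in SCA1 KI (LFC −0.81, standard error 0.094, adjusted p = 0.000111) and the peptide Cck 11245, 12498 and 13450.4 in WT and 9939.8, 8381 and 7028 in SCA1 KI (LFC −0.56, adjusted p = 0.00429). Of 29 neuropeptides and granins 5 were downregulated, and edgeR and DESeq2 on the recovered reads both called 10. Perineuronal net and matrix genes (29) had 6 downregulated members. Hapln4 and Hapln1 (1462, 1716 and 1729 in WT and 846, 913 and 872 in SCA1 KI, LFC −0.90, adjusted p = 0.0014) fell, and the core proteoglycan gene Acan did not pass.

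Cytoskeletal genes also changed in both directions. Of 35 neurofilament, tubulin, stathmin and microtubule-associated genes 11 were downregulated and 3 upregulated, around a median LFC of −0.02 that turned positive after correction for length and GC content (0.03) and by edgeR (0.01). Map6d1, a microtubule stabilizer, had 3482, 3077 and 3430.3 in WT and 1897, 1800.4 and 1789 in SCA1 KI (LFC −0.86, standard error 0.06, adjusted p = 4.06e-06), and Ttl, which adds tyrosine back to tubulin, 5232, 5113 and 5439 in WT and 3028, 3362 and 3008 in SCA1 KI (LFC −0.75, standard error 0.058, adjusted p = 8.35e-06). The neurofilament genes Nefl (LFC −0.39, adjusted p = 0.0373), Nefm, which overlaps Nefl, and Nefh fell, but Nefl was not called with any 1 of the 6 libraries left out. Tubb2a (11232, 11475 and 12016 in WT and 17845, 16468 and 15743 in SCA1 KI), Tuba1a and Stmn2, which are high in growing neurons, rose (LFC 0.53, 0.33 and 0.36), and were chosen after their values were seen. Of 52 kinesin and dynein genes 4 were downregulated (7.69%) and 3 upregulated (5.77%), against 10.8% and 4.82% of all tested genes. Kif5c fell, with 55029, 55272 and 52945 in WT and 35909.7, 42685 and 36558 in SCA1 KI (LFC −0.51, adjusted p = 0.000259). The 3 increases were 1 without library C or E, and Stmn2 was not called without A or B.

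Cadherins (39 genes) had 7 downregulated and 3 upregulated members, a count of 7 that was 3 without WT library C and 4 without SCA1 KI library A, which also gave 5 increases. Collagens (43 genes) had 2 upregulated members, 1 without library A, C or F, and 1 downregulated member, 2 without C, D or E and 4 without F, with Col5a3 at 119, 81.9 and 52.4 in WT and 206, 185 and 232 in SCA1 KI (LFC 1.36, adjusted p = 0.00121). Of the cadherins 17.95% were downregulated and 7.69% upregulated, and of the collagens 2.33% and 4.65%, against 10.8% and 4.82% of all tested genes.

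Markers of cell types were read out next. In bulk RNA, fewer cells of a type and less RNA per cell cannot be told apart. The summed normalized counts of 11 markers of cortical excitatory neurons were 400838, 391879.9 and 417771 in WT and 236781, 249639 and 215301 in SCA1 KI, and 6 of the 11 were downregulated (median LFC −0.50). Camk2a made up a large part of this sum. Slc17a7, the vesicular glutamate transporter, had 61714, 59871 and 62252 in WT and 41759.7, 47425 and 41176 in SCA1 KI (LFC −0.50, standard error 0.11, adjusted p = 0.00815), and Nrn1, which encodes neuritin, 11659, 14211 and 12995 in WT and 5926, 6959 and 6337 in SCA1 KI (LFC −1.01, standard error 0.081, adjusted p = 1.06e-05).

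Markers of the cortical layers were read out in lists of 12 genes each. Of those of layers 2 to 4, 9 were downregulated (median LFC −0.80). In layer 5 there were 4 (median LFC −0.43), a count that was 2 without SCA1 KI library A or WT library B, and in layer 6 and subplate 1 (median LFC −0.15). The 1 decrease of layer 6 was lost without library A, B or D, and its median LFC was 0.10 without A and 0.08 without B. The difference between these counts was not tested. Wfs1 and Rorb of the upper layers had 4642, 3966 and 4530.1 in WT and 1679, 2557 and 2244 in SCA1 KI (LFC −1.04, adjusted p = 0.000119) and 4986, 4900.5 and 4565 in WT and 2405, 2986 and 2358 in SCA1 KI (LFC −0.91, adjusted p = 0.000375). Rspo1, an upper layer gene chosen after its values were seen, had 715, 681 and 575 in WT and 110.4, 95.1 and 90.1 in SCA1 KI (LFC −2.72, adjusted p = 0.000267). In layer 5, Pcp4 fell (LFC −0.63, adjusted p = 2.71e-05), but Bcl11b had 4001, 3358 and 2795 in WT and 1801, 3825 and 3942 in SCA1 KI, so that its groups overlapped and library A was the lowest. In layer 6, Foxp2 had 955, 523 and 528 in WT and 588, 749.9 and 745 in SCA1 KI, with overlapping groups.

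Interneuron genes fell in part. Of 14 markers 5 were downregulated (median LFC −0.37), among them Npy, Reln, Pvalb and Gad1. Reln, which encodes the secreted guidance protein reelin, had 3653, 3706 and 3309.7 in WT and 1403, 2263 and 2599 in SCA1 KI (LFC −0.81, standard error 0.17, adjusted p = 0.0059). Gad1 had 15672, 17177 and 14543 in WT and 10391, 9959.5 and 15739.9 in SCA1 KI (adjusted p = 0.0448), so that library F reached the WT level, and its call was lost without library A, B, C or E. In library F the olfactory bulb and neuroblast list was also high, with a sum of 19302 against 8905 to 11880 in the other 5 libraries, and its part in the result was not tested.

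Astrocyte genes fell without a rise of Gfap. Of 14 markers 9 were downregulated (median LFC −0.44), with sums of 421148, 427007 and 431579 in WT and 242627, 312845 and 300909 in SCA1 KI. Slc1a2 made up a large part of these sums, with means of 209460 in WT and 122293 in SCA1 KI. Aldh1l1, a folate enzyme, had 2543, 2605 and 2594 in WT and 1616, 1773 and 1846 in SCA1 KI (LFC −0.57, standard error 0.059, adjusted p = 4.88e-05). Glul, the glutamine synthetase, had 72449, 80538 and 81519 in WT and 50088, 55063 and 57916 in SCA1 KI (LFC −0.52, adjusted p = 0.00087), and the glutamate transporter gene Slc1a3 26492, 27276 and 30061 in WT and 18579.7, 20394 and 21297 in SCA1 KI (LFC −0.48, adjusted p = 0.000922). In these genes of glutamate uptake and conversion the groups did not overlap.

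Other cell types gave few or no DEGs. None of 14 oligodendrocyte, 15 microglial, 14 endothelial and mural and 12 meningeal markers was a DEG by limma, edgeR or DESeq2, and 0, 0, 2 and 1 of them had an unadjusted p under 0.05 in limma. Without WT library D 2 endothelial and mural genes were downregulated, and without WT library B 1 oligodendrocyte gene was upregulated. The microglial sum was 24184, 22689 and 25762 in WT and 24346, 23707 and 24003 in SCA1 KI. Among 10 markers of oligodendrocyte precursors, Gpr17 (LFC −0.49, adjusted p = 0.0314) and Neu4 (LFC −0.40, adjusted p = 0.0432) were downregulated. Neither was called without library A, B or C, and Neu4 was not called without D or E either. The oligodendrocyte sum was 160086, 101908 and 94612 in WT and 101712, 115758 and 118340.5 in SCA1 KI, with WT library B the highest.

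**Figure D4:**
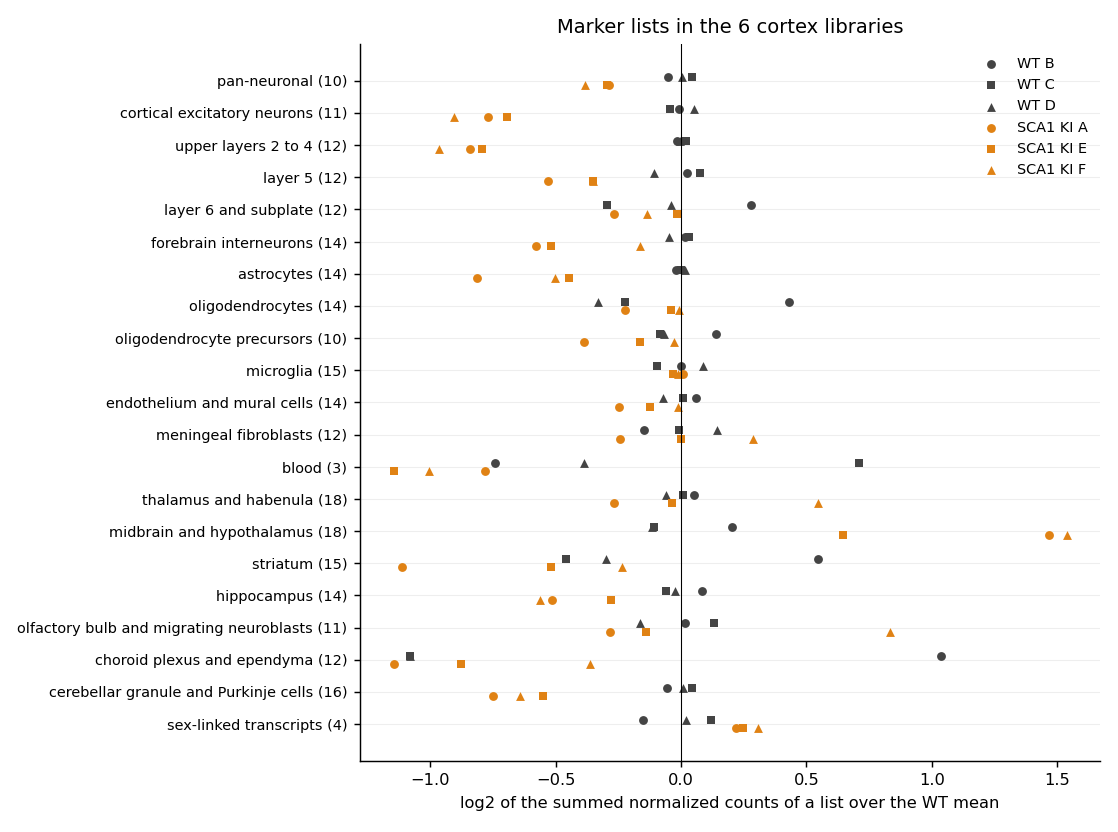
Summed normalized counts of each marker list (number of genes in brackets) in each cortex library, as log2 of the ratio to the WT mean (horizontal axis), for WT (dark) and SCA1 KI (orange). Camk2a makes up a large part of the excitatory sum and Slc1a2 of the astrocyte sum. Excitatory, upper layer and astrocyte lists lie left of the WT libraries in all 3 SCA1 KI libraries. The midbrain and hypothalamus list, of which Tal1 makes up a large part, lies right of them in all 3. The microglial list is near 0, and single libraries stand apart for the olfactory (SCA1 KI library F) and choroid plexus (WT library B) lists.

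Markers of neighbouring regions were read out beside the developmental factors. The 18 midbrain and hypothalamus genes in the table summed to 784, 632 and 629.6 in WT and 1887, 1067 and 1980.4 in SCA1 KI libraries, and 3 of 12 tested were upregulated, En2, En1 and Tal1. Tal1 had 121, 115 and 125 in WT and 991, 509 and 497 in SCA1 KI (LFC 2.38, standard error 0.29, adjusted p = 0.00015). It made up a large part of the SCA1 KI sums, and the sums of the other members overlapped between the groups. The thalamus and habenula list summed to 6153, 5956 and 5682 in WT and 4926, 5781 and 8649.8 in SCA1 KI, with a high sum in library F alone. Its members Pou4f1 and Shox2 were upregulated, while Tcf7l2, the broadest thalamic gene of the list, had 208, 177 and 182 in WT and 108, 188 and 309.9 in SCA1 KI, with overlapping groups. Th, a member of both the midbrain and the olfactory bulb lists, was high in library F but not in A or E (151, 116 and 29.6 in WT and 110.4, 34.4 and 561 in SCA1 KI). The covariate was not this sum but the mean log2 level of the thalamus and habenula list, with Pou4f1 and Shox2 among its members. It was 6.39, 6.31 and 6.44 in WT and 6.58, 6.54 and 7.57 in SCA1 KI, with no overlap. Covariate and genotype can therefore not be fully told apart. With the covariate, 432 genes were upregulated and 1223 downregulated, and without library F the counts were 618 and 1556. The part of these regions in the results was not tested beyond these values.

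By position in the genome, the X chromosome stood apart from the 19 autosomes. Of 513 tested X-linked genes, 67 were upregulated (13.1%) and 23 downregulated (4.48%). Over the autosomes 4.56% were upregulated and 11.1% downregulated, with 3.36% to 6.77% upregulated on single autosomes and at least 7.94% downregulated on each. The median LFC was 0.094 on the X chromosome and −0.0058 on the autosomes. Deviations of X-linked genes from the WT mean had medians of 0.0609, 0.0961 and 0.0737 on the log2 scale in libraries A, E and F, and of −0.0118, 0.024 and −0.0131 in B, C and D. Of the 67 upregulated genes 66 had no overlap between the groups, close to the share of all DEGs (2340 of 2402). The X chromosome was chosen once its values had been seen.

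**Figure D5:**
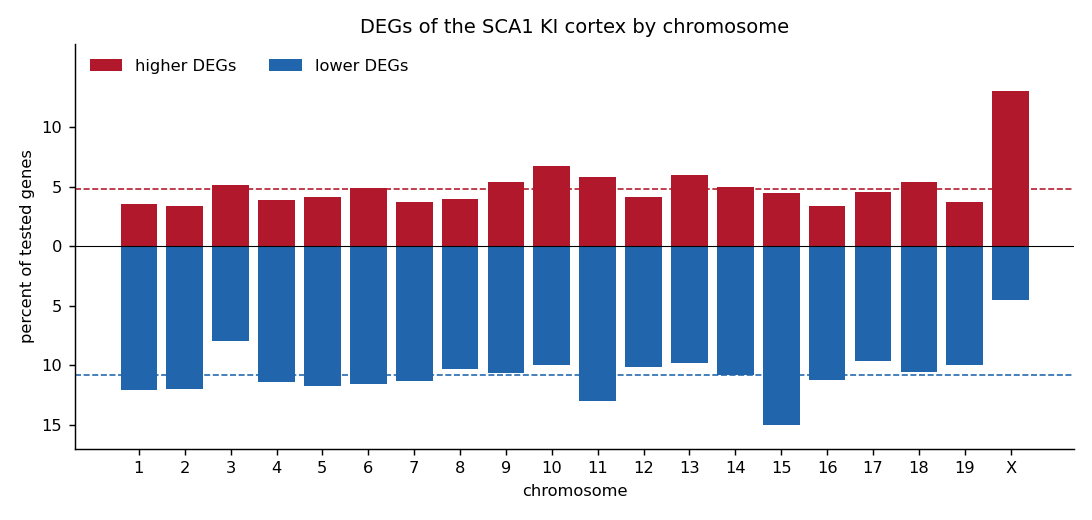
Percent of the tested genes of each chromosome that were higher (red, upwards) or lower (blue, downwards) DEGs in the SCA1 KI cortex, with dashed lines at the shares over all tested genes (4.82% and 10.8%). Chromosome X has 13.1% higher and 4.48% lower genes, while the highest share of higher genes on an autosome is 6.77%.

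Several of the X-linked genes lie side by side. From Timm8a1, which starts at 134537256, to Fam199x, which starts at 137049594 (GRCm38), 39 genes were tested, and 13 were upregulated (33.3%) and 1 was downregulated. This stretch holds the Gprasp, Armcx, Bex, Tceal and Arxes families, which act in receptor sorting, mitochondria and signalling. Gprasp2, a sorting protein of G-protein-coupled receptors whose gene overlaps Bhlhb9, had 4028, 4268 and 3871 in WT and 7501, 6904 and 7643 in SCA1 KI (LFC 0.86, standard error 0.092, adjusted p = 5.97e-05), and its neighbour Gprasp1, whose gene overlaps Armcx5 and Bhlhb9, 20680.4, 21681 and 19620 in WT and 30258, 30984 and 30828 in SCA1 KI (LFC 0.57, standard error 0.062, adjusted p = 6.21e-05). Arxes1, a retrogene of a signal peptidase subunit, had 578, 611 and 546 in WT and 958, 898 and 971 in SCA1 KI (LFC 0.70, standard error 0.066, adjusted p = 2.44e-05). Bex1 (LFC 0.58), Bex4 (LFC 0.76), Rab9b (LFC 0.64), Zcchc18 (LFC 0.51) and Morf4l2 (LFC 0.39) were upregulated as well. Members of a family resemble each other in sequence, so reads may be shared between them.

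Elsewhere on the X chromosome, Usp11, a deubiquitinating enzyme, had 4937, 4357 and 4199 in WT and 6993, 7147 and 6991 in SCA1 KI (LFC 0.65, adjusted p = 7.67e-05), the neuronal CaM kinase family gene Pnck 1648, 1502 and 1785 in WT and 4140.1, 3253 and 2995 in SCA1 KI (LFC 1.06, adjusted p = 0.00018), and the paraneoplastic antigen gene Pnma3 645, 677 and 618 in WT and 1292, 1154 and 1187 in SCA1 KI (LFC 0.90, adjusted p = 0.000267). Stard8, which encodes a protein with a lipid-binding START domain, ran the other way with 2096, 2457 and 2249.7 in WT and 639.6, 734 and 932 in SCA1 KI (LFC −1.57, standard error 0.13, adjusted p = 1.4e-05). These genes were chosen after their values were seen. Y-linked genes were read in all 6 libraries. Ddx3y had 2664, 3471 and 3124 in WT and 3499, 3421 and 3608 in SCA1 KI (LFC 0.19) and Eif2s3y 910.3, 1065 and 1175 in WT and 1554, 1531 and 1678 in SCA1 KI (LFC 0.60, adjusted p = 0.00124). Xist was not analysed here. In the cerebellum 6 X-linked genes were upregulated (1.17%) and 20 downregulated (3.90%), close to the 0.917% and 4.44% of all tested genes there.

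The region difference was tested for each gene as the cortical minus the cerebellar LFC in the same fit. It passed an adjusted p of 0.05 in 8.15% of the tested genes, and in 905 of the 2402 cortical DEGs, 215 upregulated and 690 downregulated. Of 25 genes named for the study or for their small p in the cortex, 21 passed, all 20 with the smallest p and Rbfox3. Since those 20 were chosen for a strong cortical change, their count is a description. Lynx1 had 15758 ± 68.3 normalized counts in WT and 16936 ± 463 in SCA1 KI in the cerebellum (mean ± SD of 3 libraries), against 18618 ± 1079 and 10177 ± 357 in the cortex. Twist1 had 58.3 ± 11.7 and 59.3 ± 9.08 in the cerebellum and Barx1 at most 1 read in any cerebellar library. For Rbfox3 the LFC was −0.72 in the cortex and 0.01 in the cerebellum.

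The region difference was also counted by list, beside the 8.15% of all tested genes. It passed in 24 of 67 vesicle release genes, 16 of 36 postsynaptic scaffolds, 34 of 118 homeodomain, SOX and forkhead factors, and in 6 of 29 neuropeptides, each a larger share. It passed in 2 of 23 clock genes, close to that of all genes, and in none of 24 sterol enzymes. Differences between lists were not tested. Neuromodulator receptors fell in both regions, with 23 downregulated in the cortex and 26 in the cerebellum, and differed between them in 19. In the cerebellum 15 of 29 neuropeptides and 17 of 118 homeodomain, SOX and forkhead factors were downregulated and 0 upregulated. Of 18 thalamus and habenula genes 10 were downregulated there and 0 upregulated, against 4.44% downregulated over all tested genes. The part of neighbouring regions in the cerebellar libraries was not tested. None of the cerebellar libraries is a control for the cortex, and both contrasts share 1 estimate of the spread.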

How the data were processed

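Poly-adenylated RNA of whole cortex and cerebellum was sequenced from SCA1 KI and WT mice, 3 libraries per region and genotype. The authors deposited 1 table of normalized counts for all 12 libraries (15759 entries). The submitters' processing notes name STAR, featureCounts, DESeq2 and the mm10 genome, with versions not given in the sources used here. The values were a signal in size-factor units, as the authors divided read counts by 1 factor per library. All values came out as whole reads (tolerance 0.01 reads) once multiplied back, and these gave the depth. No column was left out.

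Columns were matched to groups by region and genotype in their names. A gene was tested when its mean over the libraries reached 10 normalized counts. These 15369 genes were fitted with limma 3.58.1 (R 4.3.3), with a trend on the mean, to log2(normalized count + 1) over 4 group means, and 390 were not tested. Fold changes on this scale understate those of low genes. DEGs were called at an adjusted p (Benjamini-Hochberg) under 0.05 with an LFC beyond 0.25 in either direction. Tables were summarised in Python 3.11.15. A chi-square test of the reads of library pairs of 1 genotype gave 10.6 to 36.9 per gene, above sampling noise, and each library was kept as its own sample. The fits were tested on simulated data. The alternatives were pseudocounts of 0.5 and 5, other filters, centring, no or a stricter LFC limit, a correction for transcript length and GC content, a covariate for thalamus and habenula markers, the cortex on its own, each library left out, and edgeR 4.0.16 (842 upregulated, 1630 downregulated) and DESeq2 1.42.0 (816 and 1844) on the recovered reads.

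The members and lists were chosen with earlier results of these data known, among them 37 pathway and 21 marker lists. The genes named were those the study stained or measured, the 10 with the smallest p per direction with no overlap of libraries and a mean of at least 50, the first member and up to 3 DEGs of smallest p of each list, the 15 most abundant, and the 5 highest genes per direction that were at or under 3 reads in the other genotype. All other genes named with values were chosen after their values were seen, which includes all X-linked genes except Arxes1 and Fhl1. Symbols were matched to GENCODE vM21 (14978 of 15758) for positions and overlaps, and promoters were taken from RefSeq. There were 23 symbols turned into dates, which were kept as entries of no list. A few genes and 1 list are not reported here.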

Additional observations from a re-analysis of the deposited data

Results flagged for a closer look

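The genotype effect differed between cortex and cerebellum, by the interaction term of the limma fit, in 21 of the 25 genes examined. These include the 10 genes per direction chosen for the smallest p in the cortex, so the count is a description. Over all tested genes the share was 8.15%. The values are the cortical LFC minus the cerebellar LFC. Among the genes higher in the SCA1 KI cortex the difference was 9.35 for Pou4f1, 6.11 for Barx1, 3.47 for Twist1, 1.93 for Onecut2, 1.42 for Sfmbt2, 1.11 for Cidea, 0.87 for Ece2, 0.65 for Lgals8, 0.60 for Fhl1 and 0.43 for Arxes1. That of Barx1 rests on a gene without reads in WT cortex and is no bound. Among the genes lower in the SCA1 KI cortex it was −2.56 for Tspan11, −2.20 for Endou, −1.51 for Gpd1, −1.12 for Gsg1l, −1.02 for Camk2n1, −0.98 for Mapk4, −0.97 for Lynx1, −0.85 for Efhd2, −0.73 for Sema7a, −0.70 for Hapln4 and −0.73 for Rbfox3.

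For Pou4f1 the difference exceeded its cortical LFC of 5.76, as the gene fell in the SCA1 KI cerebellum, from 89.7 ± 46.5 to 6.68 ± 4.06 normalized counts (SD, n = 3 each, LFC −3.59, adjusted p = 0.000943 from limma). Of the 18 tested genes of the thalamus and habenula list, to which Pou4f1 belongs, 10 were downregulated in the cerebellum and 0 upregulated (median LFC −0.58). The part of neighbouring regions in the cerebellar libraries, and so in this difference, was not tested. Gsg1l (LFC −0.49, adjusted p = 0.00632), Camk2n1 (LFC −0.42, adjusted p = 0.00928) and Hapln4 (LFC −0.44, adjusted p = 0.00219) were lower in the cerebellum by less than in the cortex. No group had more than 3 libraries, so single libraries were not tested for standing apart.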

How the results depend on the processing

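The cortex gave 741 upregulated and 1661 downregulated DEGs. Upregulated DEGs numbered 393 when cortex libraries were fitted on their own and 432 with thalamus and habenula markers as a covariate, and 90 upregulated and 233 downregulated genes passed an absolute LFC of 1. With each library left out in turn there were 529 to 806 upregulated and 1285 to 1787 downregulated DEGs, the lowest of both without WT library C, and a downregulated share of 66.4% to 72.3%. That share was 56.5% once length and GC content were corrected for, with 1059 upregulated and 1377 downregulated genes. Genes with a region difference numbered 1253, and 783 to 1267 with each library left out (783 without cerebellar SCA1 KI library 1, 833 without library 3). No reported gene LFC changed sign in any alternative. The calls of single genes were followed in the 22 alternatives that kept the LFC limit. In 108 of 135 genes with a reported fold change or adjusted p the call was the same in all of these alternatives. Chrm1 lost it in 14 of them, Gad1 in 12, Neu4 and Uchl1 in 11, Nefl, Trp53 and Zmat3 in 10, Brca1 in 7, Alas2, H2afy and Ring1 in 6, Hdac2 in 5, and Cck, Dusp6, Gng4, Gpr17, H2afy2, Hdac1, Hoxc4, Hspa8, Psme2, Slc17a7 and Stmn2 in 1 to 4. Atxn1 gained a call without SCA1 KI library E. The region difference of Arxes1 was lost with the length and GC correction and with the covariate, and that of Barx1 by edgeR and DESeq2. The causes were not tested. Reads on genes ran from 29520855 to 51311309 per library, and every SCA1 KI cortex library was deeper than every WT one, so depth and genotype cannot be told apart there. No paired analysis was possible because the columns carry letters in the cortex, and the replicate numbers of the labels could not be matched to them.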

Other observations

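Of 23 histone genes 4 were upregulated and 0 downregulated. H2afy and H2afy2, which encode macroH2A variants found on silent chromatin, had 2511, 2293 and 2257 in WT and 2559, 3035 and 2959.8 in SCA1 KI (LFC 0.27, adjusted p = 0.026 from limma) and 757, 741 and 726 in WT and 1062, 922 and 941 in SCA1 KI (LFC 0.39, adjusted p = 0.0231). H2afy2 was not called without library A, C or D. No histone gene was upregulated without WT library C, and 1 without library D or F. Of 26 genes of the p53 and DNA damage response 4 were upregulated, among them Trp53 (LFC 0.31, adjusted p = 0.0428), Rrm2b (LFC 0.39, adjusted p = 0.00447) and Brca1 (LFC 0.46, adjusted p = 0.0307), and 2 downregulated, Ccng1 (LFC −0.51, adjusted p = 0.000156) and Zmat3 (LFC −0.35, adjusted p = 0.0367). The 4 increases were 1 without library C and 2 without A, D, E or F. Trp53 and Zmat3 were not called without A or C. Of 39 interferon and antigen presentation genes 1 was downregulated, the non-classical histocompatibility gene H2-T23 (607, 543 and 475 in WT and 354, 327 and 331 in SCA1 KI, LFC −0.68, adjusted p = 0.00241), and none was upregulated.

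The histone deacetylase genes Hdac1 (778, 754 and 787 in WT and 1029, 907 and 949.7 in SCA1 KI, LFC 0.31, adjusted p = 0.00598) and Hdac2 (LFC 0.26, adjusted p = 0.00949, not called without library A, B or D) rose, while Hdac4 (2146, 1803 and 1651 in WT and 897, 1301 and 1256 in SCA1 KI, LFC −0.71, adjusted p = 0.00284), a class IIa deacetylase that moves between nucleus and cytoplasm, fell. Of 13 hippocampal markers 2 were downregulated, Wfs1 and Trpc6. Of 15 striatal markers 2 were downregulated, Ppp1r1b (6939, 3432 and 4741 in WT and 1419, 2312 and 2759 in SCA1 KI) and Penk, and their summed level was 29335, 14648 and 16338 in WT and 9290.3, 14028 and 17064 in SCA1 KI, highest in WT library B. The count of 2 was 1 without library A, B, D or E. Of 16 genes listed as markers of cerebellar granule and Purkinje cells 3 were downregulated in the cortex, Itpr1, Calb1 and Car8, and 1 was upregulated, Slc1a6, and the first count was 1 without library C or D. The IP3 receptor gene Itpr1, which cortical neurons use too, had 34629, 36281 and 34428 in WT and 17419, 22203 and 20180.1 in SCA1 KI (LFC −0.82, adjusted p = 0.000155). Of 10 pan-neuronal markers 4 were downregulated and 2 upregulated, Stmn2 and Uchl1 (15260.5, 17277 and 19325 in WT and 28829, 22747 and 22291 in SCA1 KI, LFC 0.51, adjusted p = 0.0479). Neither was called without library A or B, and Uchl1 was not called without C, E or F either. The choroid plexus sum was 2235, 515 and 515 in WT and 493, 592 and 847 in SCA1 KI. Of 3 blood genes tested, Alas2 was downregulated (LFC −0.76, adjusted p = 0.0364), a call that was lost without library A, B, C, D or E.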
